A study of Mus musculus with 2 samples.

Results

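The genes described are 6 chemokine receptors, Cxcr3, Cxcr4, Cxcr5, Cxcr6, Ccr2 and Ccr8, taken by symbol from the 15121 genes of the deposited table. All 6 were found. They were followed in single-cell RNA from NILER, an Nras-mutant mouse melanoma model grown in mice of matching background. It comes from the line NIL, which carries Nras Q61R, and was given mutations by ultraviolet light. The samples were 1 library of untreated cells and 1 library of cells after Trametinib+BGB-283, both labelled as T cells and as day 5. Trametinib is an inhibitor of the kinase MEK and BGB-283 is an inhibitor of RAF kinases. Both groups share the same tumour model, and the labels give neither the age of the mice, nor how many were pooled, nor how the cells were sorted.

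Chemokine receptors are G protein-coupled receptors that steer cells along gradients of small secreted proteins. In tumours, Cxcr3 (ligands Cxcl9 and Cxcl10) and Ccr2 (ligands Ccl2, Ccl7, Ccl12) are known for the entry of T cells and monocytes from blood. Cxcr6 (ligand Cxcl16) is known for keeping effector T cells near dendritic cells. Cxcr4 (ligand Cxcl12) holds many leukocytes in marrow and stroma, Cxcr5 (ligand Cxcl13) leads B cells and follicular helper T cells into follicles, and Ccr8 (ligands Ccl1 and Ccl8) marks regulatory T cells in tumours.

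The cells were gated on unique molecular identifiers (UMIs, tags that count captured RNA molecules). After filtering, 8670 untreated and 7343 treated cells remained. The CD8 gate (a T cell receptor complex gene with Cd8a or Cd8b1, no Cd4 and no Foxp3) held 4176 and 4684 cells, the CD4 gate 914 and 484, the gate of T cells with Foxp3 487 and 420, the natural killer gate (Ncr1, no T cell receptor complex gene) 14 and 34, and the dendritic gate 310 and 85. Median UMIs per cell were 6468 and 6418.5 in CD8 cells, 4117 and 4399.5 in CD4 cells, 5418 and 5558 in Foxp3-positive cells, 9042.5 and 6284 in natural killer cells and 12070 and 10638 in dendritic cells. Markers differed in how often they were seen. Foxp3-positive cells held Ikzf2 in 93.0% and 95.7%, Ctla4 in 88.5% and 89.05% and Il2ra in 54.0% and 78.1%. Ikzf2 was also in 39.0% and 68.3% of CD8 cells. Natural killer cells held Klre1 in 10 of 14 and 23 of 34, Eomes in 7 and 22 and Gzma in 2 and 8. Dendritic cells held Flt3, 1 of the gate's own genes, in 84.2% and 83.5% and Zbtb46 in 29.4% and 48.2%. Trdc, of the gamma-delta T cell receptor, was also seen in 35.7% and 17.6% of the natural killer gate, and the share of other Ncr1-positive lymphocytes in it was not tested. With 1 library per group there was no replicate and no test, and treatment and library cannot be told apart. Every interval given is an exact 95% interval that covers counting error only, and 35 barcodes occurred in both libraries.

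The sequences before the start sites of Cxcr4, Cxcr3 and Cxcr6 are shown because in CD8 cells the first was higher and the second lower in the treated library, while the third had the widest difference in share. Each is the 250 bases before the RefSeq start on the build GRCm38.p6, 5′ to 3′ on the gene's strand. Cxcr4 lies at chr1:128592300-128592549 on the minus strand, Cxcr3 at chrX:101734148-101734397 on the minus strand and Cxcr6 at chr9:123806227-123806476 on the plus strand. Capitals mark matches on either strand to 1 of 8 motifs: the TATA box TATAAAA, the GC box CCGCCC, the NRF-1 motif, the NFAT core GGAAA, the AP-1 motif TGANTCA, the CRE TGACGTCA, a T-box motif AGGTGTGA and a FoxO motif GTAAACA.
Cxcr4: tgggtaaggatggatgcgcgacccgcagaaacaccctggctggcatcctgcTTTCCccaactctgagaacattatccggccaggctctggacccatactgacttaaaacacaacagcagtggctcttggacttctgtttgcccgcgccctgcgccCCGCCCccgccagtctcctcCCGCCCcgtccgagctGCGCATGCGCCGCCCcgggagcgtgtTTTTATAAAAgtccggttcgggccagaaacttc
Cxcr3: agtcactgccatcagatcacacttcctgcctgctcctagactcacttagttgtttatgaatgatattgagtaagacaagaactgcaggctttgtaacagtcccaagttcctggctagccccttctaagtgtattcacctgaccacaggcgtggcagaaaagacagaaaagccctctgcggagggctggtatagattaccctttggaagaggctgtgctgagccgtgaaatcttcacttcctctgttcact
Cxcr6: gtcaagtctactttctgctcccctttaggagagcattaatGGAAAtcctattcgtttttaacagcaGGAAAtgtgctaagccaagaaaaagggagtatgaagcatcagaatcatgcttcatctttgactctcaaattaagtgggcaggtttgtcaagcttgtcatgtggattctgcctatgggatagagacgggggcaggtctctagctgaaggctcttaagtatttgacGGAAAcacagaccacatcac

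The Cxcr4 window was 61.2% G or C with 19 CpG pairs, against medians of 52.4% and 6 over 32851 promoters. It held 3 GC boxes (found in 32.7% of all promoters of that length), 1 NRF-1 motif that overlaps the last of these GC boxes (0.782%), 1 NFAT core (55.6%) and the TATA box read on both strands at overlapping positions (4.98%). The Cxcr6 window was 43.6% G or C and held 3 NFAT cores and no other motif searched. In Cxcr3 (48.0% G or C) none of the 8 was matched. Of the 6 genes, 5 had an entry, Cxcr5 had none, and the motifs were chosen after the sequences had been read.

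Cxcr4 RNA was higher in the treated library in each gate, Cxcr3 was lower in CD8 and dendritic cells, Cxcr6 was found in more CD8 cells, and Ccr2 differed in direction between gates. Counted over the receptors, CD8 cells had 5 of the 6 with at least 50 UMIs in 1 library and at least 1 in both, the minimum set for a ratio of CPM (UMIs of the gene per 1000000 UMIs of the gate). Cxcr5 passed only through its untreated UMIs. Cxcr4 and Ccr2 were at least 1.5-fold higher in the treated library, where 31% of 11183 genes were, and Cxcr3 and Cxcr5 at least 1.5-fold lower, where 18.9% were. In CD4 cells 4 had enough UMIs, with 2 higher (21.5% of all genes) and 0 lower (19%). In Foxp3-positive cells 4 had enough, with Cxcr4 higher (17%) and Cxcr6 lower (12.1%). Natural killer cells gave 2, with 1 higher (26.5%) and 1 lower (16.3%), and dendritic cells 3, with 2 higher (17.9%) and 1 lower (14.6%). Cxcr4 in natural killer cells (15 and 94 UMIs) and Cxcr3 in dendritic cells (300 and 44 UMIs) also passed only through the library where they were higher, so these calls are descriptions. Ccr8 missed the minimum in every gate. The median log2 ratio of all genes was 0.126 in CD8 cells and between -0.029 and 0.048 in the other gates, and relative to that median the CD8 values of Cxcr4 and Cxcr6 were 0.68 and 0.17. Counts over so few receptors are not read further against these shares.

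Cxcr4, the receptor for the stromal chemokine Cxcl12, was higher in the treated library in all 5 gates, though in natural killer cells it met the minimum only through its treated UMIs. In Foxp3-positive cells, 206 of 487 untreated (42.3%, interval 37.9 to 46.8%) and 246 of 420 treated cells (58.6%, 53.7 to 63.3%) had a Cxcr4 UMI. In CD4 cells the share was 21.6% (18.9 to 24.4%) untreated and 50.8% (46.3 to 55.4%) treated. These intervals do not overlap, and the level had the same direction: CPM were 102 and 278 in Foxp3-positive cells, a 2.72-fold difference (2.40 to 3.07), and 70.3 and 268 in CD4 cells, 3.81-fold (3.33 to 4.37). Cells with 5 or more Cxcr4 UMIs made up 1.44% of untreated and 15.2% of treated Foxp3-positive cells. After thinning each cell to 2000 UMIs, which sets all cells to 1 depth, the shares were 22.4% and 40.4% in Foxp3-positive and 11.1% and 33.3% in CD4 cells.

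**Figure D1:**
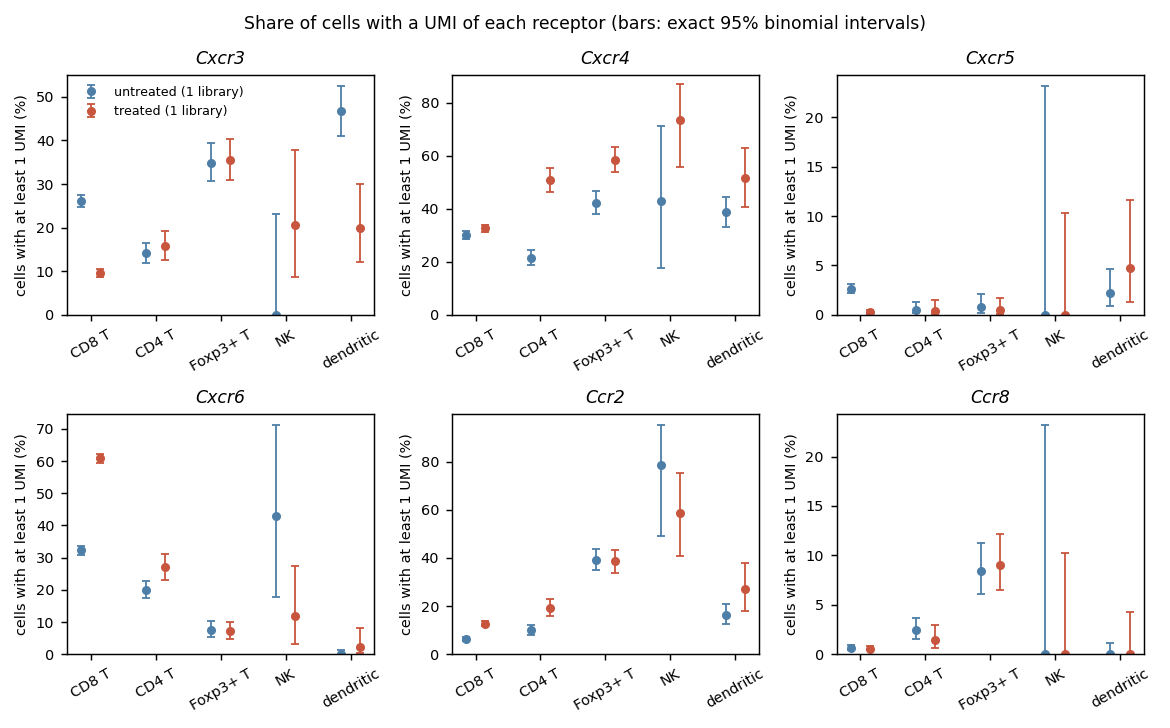
Share of cells with at least 1 UMI of each receptor (y axis, percent) in 5 gates (x axis), 1 untreated and 1 treated library, with exact 95% binomial intervals as bars. Cxcr4 was higher in the treated library in every gate, Cxcr6 in CD8 cells was at 32.3% untreated and 60.8% treated, and Cxcr3 in CD8 cells at 26.1% and 9.63%.

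In dendritic cells Cxcr4 was seen in 38.7% (33.3 to 44.4%) of untreated and 51.8% (40.7 to 62.7%) of treated cells, at 80.3 and 158 CPM (1.97-fold, 1.63 to 2.38). In the small natural killer gate it was seen in 6 of 14 and 25 of 34 cells, at 97.7 and 407 CPM (4.17-fold, 2.41 to 7.75). With at least 2 Ncr1 UMIs (11 and 13 cells) the log2 ratio in natural killer cells was 0.82 in place of 2.06. CD8 cells showed the smallest ratio, 59.9 and 105 CPM (1.75-fold, 1.66 to 1.85), at shares of 30.1% (28.7 to 31.5%) and 32.6% (31.2 to 33.9%). The mean number of UMIs in Cxcr4-positive CD8 cells was 1.72 untreated and 2.33 treated. With at most 5% mitochondrial UMIs in place of 10%, the difference in CD8 shares turned from 2.48 to -0.27 percentage points, while the log2 ratio of CPM stayed between 0.65 and 0.83 over 9 alternatives. In stromal or tumour cells, 0 of 7 untreated and 0 of 10 treated cells had a Cxcr4 UMI, which allows up to 7.84 and 6.24 CPM. Their median depths were 48214 and 45192.5 UMIs. This gate left out droplets with a UMI of the leukocyte gene Ptprc or of a T cell receptor complex gene. It therefore cannot show how much Cxcr4 background came from free leukocyte RNA.

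The same direction was seen in cells outside the 5 gates. Macrophages held Cxcr4 at 137 and 415 CPM (60 of 150 and 74 of 93 cells positive), B cells at 178.7 and 710.5 CPM (2 of 5 and 68 of 87) and neutrophils at 395.6 and 970.1 CPM (6 of 10 and 32 of 51).

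**Figure D2:**
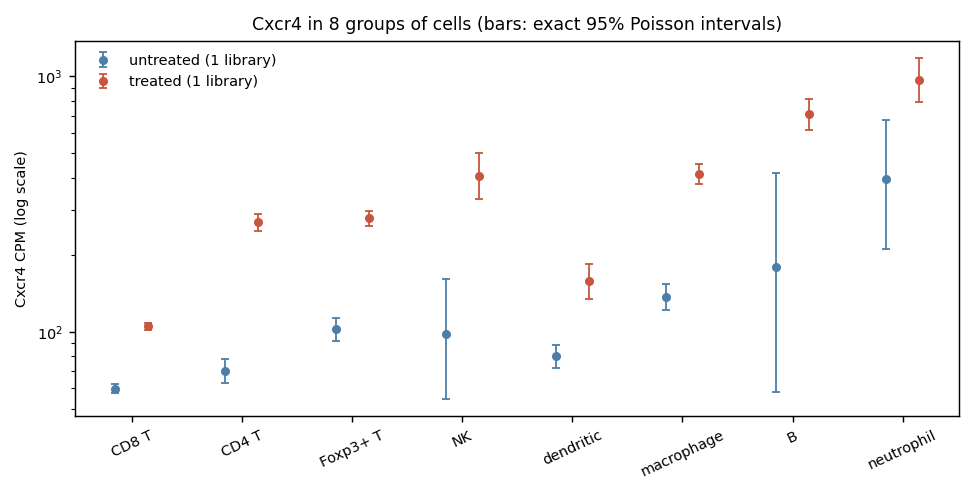
Cxcr4 CPM (y axis, log scale) in 8 groups of cells (x axis), 1 untreated and 1 treated library, bars as exact 95% Poisson intervals. The treated value is the higher one in each group, from 105 CPM in CD8 T cells to 970.1 CPM in neutrophils.

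The CD8 gate held cells in different states, and the Cxcr4 ratio was higher in those without Pdcd1, the gene of the checkpoint receptor PD-1. Cells with a Pdcd1 UMI were 26.1% of the untreated and 65.3% of the treated gate (1088 and 3060 cells), at median depths of 11883.5 and 6891.5 UMIs. The cells without it (3088 and 1624) had median depths of 5760 and 5608.5 UMIs. Among CD8 cells without Pdcd1, Cxcr4 was seen in 28.7% untreated and 48.3% treated, at 69.1 and 205 CPM (2.97-fold, 2.77 to 3.18). In cells with Pdcd1 the levels were 48.0 and 62.4 CPM (ratio 1.30, 1.19 to 1.42). The shares there, 34.2% and 24.2%, went the other way at unequal depth and no order is read from them. Pdcd1-positive cells with Tcf7, a factor of stem-like T cells, held Cxcr4 in 57.7% of 213 and 60.3% of 78 cells, at 87.4 and 211 CPM (2.42-fold, 1.96 to 2.97). In Foxp3-positive cells the ratio was 2.36 (1.99 to 2.79) with and 3.201 (2.66 to 3.86) without Pdcd1, and in CD4 cells 3.99 (3.09 to 5.17) and 3.74 (3.175 to 4.405).

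**Figure D3:**
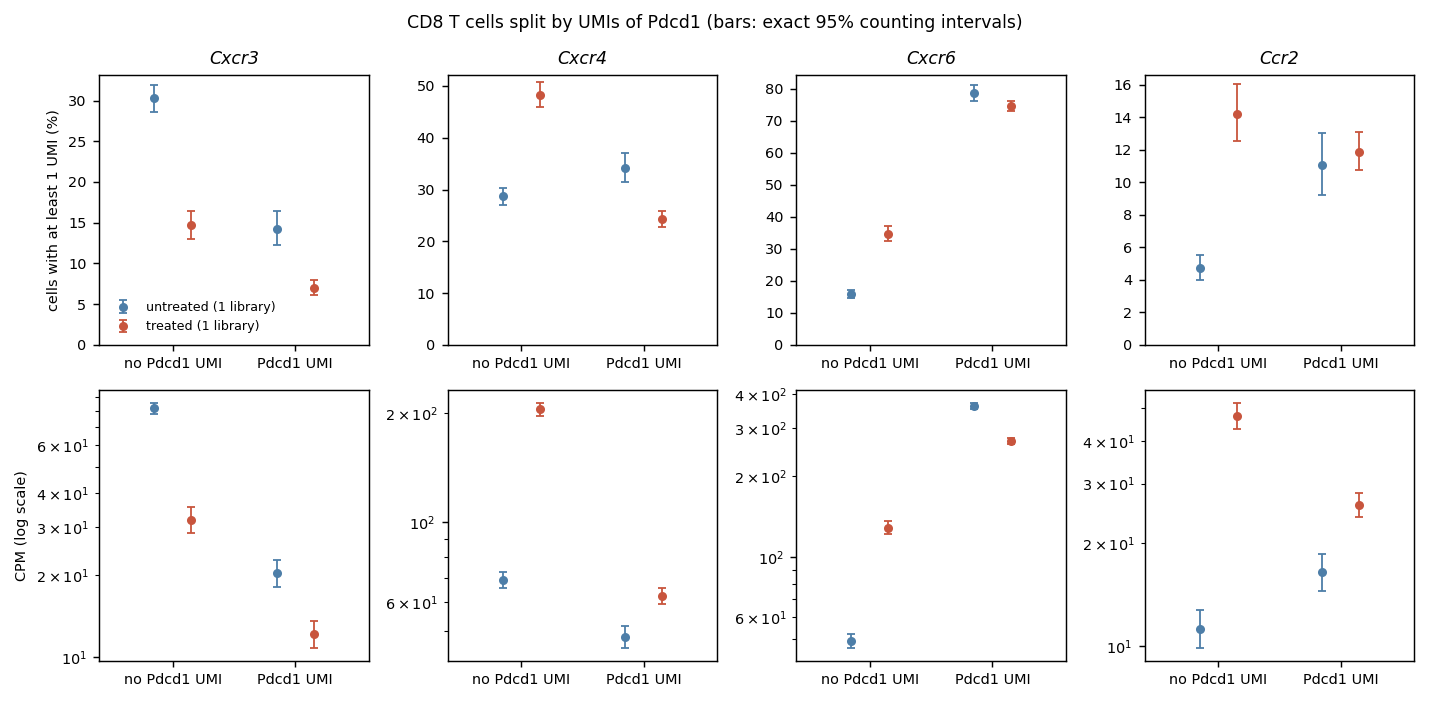
CD8 T cells split by UMIs of Pdcd1 (x axis), with the share of cells with a UMI (top, percent) and the CPM on a log scale (bottom) for 4 receptors, 1 library per group, bars as exact 95% counting intervals. In cells without Pdcd1 the treated CPM was the higher one for Cxcr4, Cxcr6 and Ccr2, whereas in cells with Pdcd1 Cxcr6 was at 362 CPM untreated and 268 CPM treated, and Cxcr3 was lower in the treated library in both.

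Cxcr6, a receptor of tissue-resident and effector T cells, had the widest difference in share of the 6 receptors in CD8 cells, and a small one in level. A Cxcr6 UMI was present in 1349 of 4176 untreated (32.3%, 30.9 to 33.7%) and 2850 of 4684 treated CD8 cells (60.8%, 59.4 to 62.3%), and in 17.1% and 31.3% after thinning. The level was 185 and 227 CPM, a ratio of 1.23 (1.19 to 1.27). The number of UMIs in each positive cell went the other way: positive cells held 4.95 UMIs on average untreated and 2.70 treated, and cells with 5 or more UMIs were 12.0% and 9.22% of the gate. Background was low, with 0 of 310 untreated and 2 of 85 treated dendritic cells positive (a share of up to 0.968% is allowed in the first), and 0 of 87 treated B cells (up to 3.45%).

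By state, Cxcr6 was not higher in the treated library within the Pdcd1-positive cells. Pdcd1-positive CD8 cells held it in 78.8% untreated and 74.7% treated, at 362 and 268 CPM (1.35-fold lower in the treated library), at the unequal median depths given above. The cells without Pdcd1 differed the other way, with 15.9% and 34.7% positive at 49.1 and 129 CPM (2.62-fold, 2.42 to 2.85). Pdcd1-positive cells, the main holders of Cxcr6 in both libraries, were a larger part of the treated gate, and the part of that shift in the higher Cxcr6 share was not tested. CD8 cells with Mki67 or Top2a, genes of dividing cells, held Cxcr6 at 253 and 232 CPM (ratio 0.915, 0.868 to 0.964), and the other CD8 cells at 137.5 and 225 CPM (1.64-fold, 1.56 to 1.71).

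The direction of the CD8 share held at like depth. In each of 5 bins of UMIs per cell, Cxcr6 was seen more often in treated cells, from 12.9% and 23.9% at 1000 to 2000 UMIs to 74.9% and 85.8% at 16000 or more, and Ccr2 likewise. Cxcr3 was seen less often in treated cells in each bin. Cxcr4 shares were close in the deepest 2 bins, with 33.8% and 33.2% at 8000 to 16000 UMIs and 48.1% and 48.8% above.

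**Figure D4:**
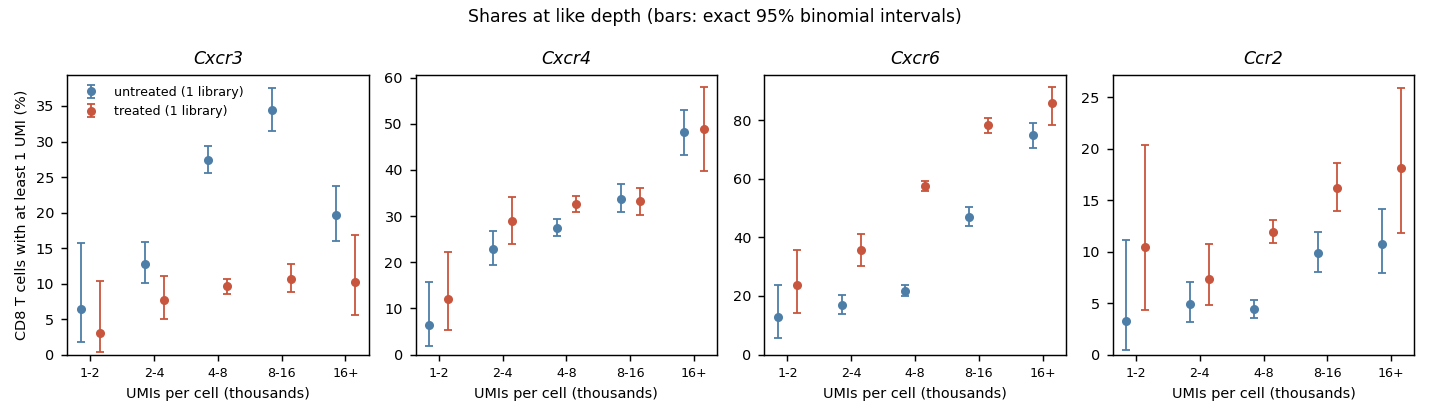
Share of CD8 T cells with at least 1 UMI of 4 receptors (y axis, percent) in 5 bins of UMIs per cell (x axis), 1 library per group, bars as exact 95% binomial intervals. Treated cells lie above untreated cells for Cxcr6 and Ccr2 and below them for Cxcr3 in each bin.

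CD4 and Foxp3-positive cells held Cxcr6 less often than CD8 cells. CD4 cells were positive in 19.9% (17.4 to 22.7%) and 27.1% (23.2 to 31.3%) at levels of 149.6 and 148.5 CPM (ratio 0.992, 0.871 to 1.13). Foxp3-positive cells held it rarely, in 7.60% and 7.14%, at 28.8 and 18.8 CPM (1.53-fold lower, 1.10 to 2.15). This difference was under 1.5-fold, at log2 -0.17 in place of -0.62, when the CPM of each cell was averaged, and at -0.51 and -0.44 with no UMI of or no limit on genes of other cell types. In natural killer cells 6 of 14 (42.9%, 17.7 to 71.1%) and 4 of 34 (11.8%, 3.30 to 27.5%) were positive with 13 and 4 UMIs, too few for a ratio. Cxcr6 lies inside Fyco1, on the opposite strand, in the GENCODE M21 annotation, and the sources used here do not say whether counting used strand; Fyco1 itself was at 13.5 and 12.1 CPM in CD8 cells.

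Cxcr3, the receptor of interferon-induced chemokines on effector T cells, was lower in treated CD8 cells. A UMI was present in 1089 of 4176 untreated (26.1%, 24.7 to 27.4%) and 451 of 4684 treated CD8 cells (9.63%, 8.80 to 10.5%), and in 11.2% and 3.72% after thinning. The level was 55.2 and 18.0 CPM, 3.07-fold lower in the treated library (2.80 to 3.36). In macrophages, which served as background, 12 of 150 untreated and 1 of 93 treated cells had a UMI at median depths of 10729 and 9178 UMIs, shares below those of the CD8 cells. The summed level of 8 dendritic cell genes in the CD8 gate was 264 and 37.6 CPM, and the part of such RNA in the Cxcr3 difference was not tested.

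Cxcr3 was at least 1.5-fold lower in the treated library both with and without Pdcd1. In CD8 cells without Pdcd1 the shares were 30.2% and 14.7%, at 81.9 and 31.9 CPM (ratio 0.389, 0.344 to 0.439). In cells with Pdcd1 they were 14.2% and 6.96%, at 20.3 and 12.1 CPM (ratio 0.597, 0.507 to 0.702). The dividing CD8 cells stood closer together, at 23.4 and 17.1 CPM (ratio 0.731, 0.605 to 0.880). Pdcd1-positive cells with Tcf7 held Cxcr3 in 35.7% of 213 and 26.9% of 78 cells at 48.7 and 57.2 CPM. Between the libraries the Tcf7 level itself in CD8 cells was 165 and 47.5 CPM.

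In CD4 and Foxp3-positive cells the Cxcr3 ratios were under 1.5-fold. Shares were 14.1% (11.9 to 16.5%) and 15.7% (12.6 to 19.3%) in CD4 cells at 58.1 and 54.6 CPM (ratio 0.940, 0.757 to 1.16). In Foxp3-positive cells, where Cxcr3 stood highest in both libraries, shares were 34.9% and 35.5% and levels 114 and 89.5 CPM (ratio 0.786, 0.672 to 0.917). In treated natural killer cells 7 of 34 had 1 UMI each, against 0 of 14 untreated, which allows a share of up to 21.4%.

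Dendritic cells held Cxcr3 in 145 of 310 untreated (46.8%, 41.1 to 52.5%) and 17 of 85 treated cells (20.0%, 12.1 to 30.1%), at 67.4 and 43.5 CPM (1.55-fold lower, 1.13 to 2.18). With at most 5% mitochondrial UMIs the difference was under 1.5-fold, at log2 -0.53 in place of -0.63. The thinned shares, 10.8% and 7.14%, were closer. The kinds of dendritic cell differed between the libraries: cells with Xcr1 or Clec9a, genes of cross-presenting dendritic cells, were 54.8% of the untreated and 24.7% of the treated gate, and cells with Fscn1 or Ccl22, genes of migratory mature ones, 22.3% and 44.7%. Within the Xcr1 or Clec9a cells Cxcr3 was seen in 112 of 170 and 15 of 21 (65.9% and 71.4%), with no lower level in the treated library (81.2 and 107 CPM, ratio 1.32, 0.921 to 1.84). Cells with Fscn1 or Ccl22 held it in 10.1% and 2.63%, and the remaining cells in 36.6% of 71 and 3.85% of 26.

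**Figure D5:**
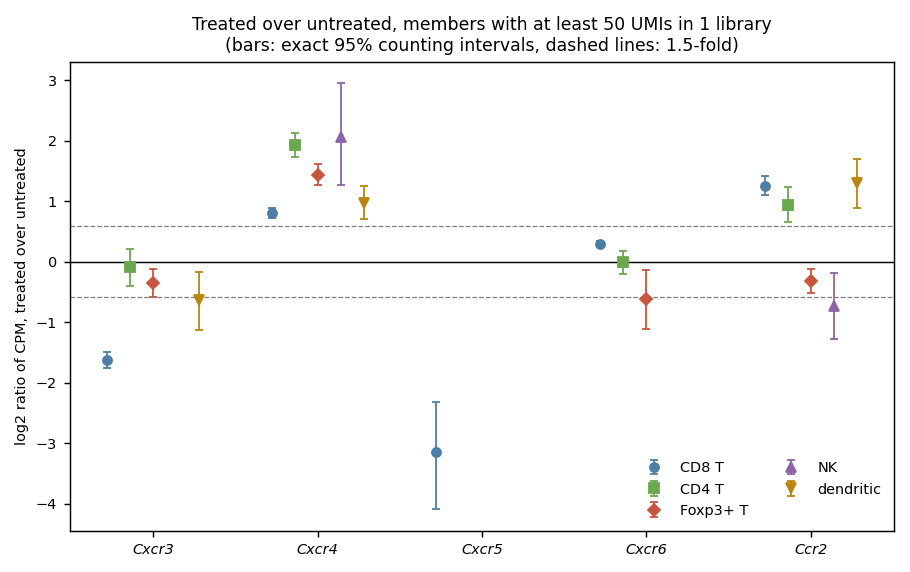
Log2 ratio of CPM, treated over untreated (y axis), for 5 receptors (x axis) in the gates where a receptor had at least 50 UMIs in 1 library, with exact 95% counting intervals as bars and dashed lines at 1.5-fold. Cxcr4 lies above the upper line in all 5 gates, whereas Ccr2 lies above it in 3 gates and below the lower line in natural killer cells.

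Ccr2, the receptor of monocyte chemoattractant proteins, was higher in treated CD8, CD4 and dendritic cells. It was seen in 6.35% (5.63 to 7.13%) of untreated and 12.7% (11.7 to 13.7%) of treated CD8 cells, at 13.5 and 32.3 CPM (2.39-fold, 2.15 to 2.67). Among CD8 cells without Pdcd1 the share was 4.70% of 3088 untreated and 14.2% of 1624 treated cells (4.22-fold in CPM, 3.60 to 4.96). Their levels were 11.2 and 47.4 CPM. In cells with Pdcd1 the levels were 16.5 and 25.9 CPM (1.57-fold, 1.36 to 1.83) at shares of 11.03% and 11.86%. Macrophages carried Ccr2 at 114 and 194 CPM, and the 9 macrophage and B cell genes limited by the gate summed to 32.3 and 15.8 CPM in it. With no limit on these genes the Ccr2 log2 ratio was 0.27 in place of 1.26, and with none of these UMIs allowed it was 1.44. Of 87 treated B cells none had a Ccr2 UMI (up to 3.45% allowed, median depth 2806 UMIs). Naive-state CD8 cells, the other background set, were positive in 34 of 1198 untreated (2.84%) and 4 of 244 treated cells (1.64%). Their median depths were 6029 and 5704.5 UMIs.

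CD4 cells held Ccr2 in 9.96% (8.09 to 12.1%) and 19.2% (15.8 to 23.0%), at 44.9 and 86.4 CPM (1.93-fold, 1.58 to 2.35). This was under 1.5-fold (log2 0.43 in place of 0.95) when the gate asked for 2 Cd4 UMIs. Dendritic cells held it in 16.5% (12.5 to 21.1%) and 27.1% (18.0 to 37.8%), at 33.7 and 83.1 CPM (2.46-fold, 1.86 to 3.24). By kind, the Xcr1 or Clec9a cells were positive in 20 of 170 and 8 of 21, and the cells without Xcr1, Clec9a, Fscn1 and Ccl22 in 26 of 71 and 14 of 26. The Fscn1 or Ccl22 cells had 5 of 69 and 1 of 38, with 18 and 2 UMIs. The summed level of the 9 macrophage and B cell genes in the dendritic gate was 213 and 743 CPM, and its part in the Ccr2 difference was not tested.

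Foxp3-positive cells were the T cells with most Ccr2, in 39.2% (34.9 to 43.7%) and 38.6% (33.9 to 43.4%), at 146 and 117 CPM (ratio 0.801, 0.699 to 0.918). Thinned shares were 23.9% and 16.9%. Natural killer cells had the highest level of the 5 gates in both libraries, 410.1 and 247 CPM, with 11 of 14 and 20 of 34 cells positive and 63 and 57 UMIs (1.66-fold lower in the treated library, 1.14 to 2.42). With 2 Ncr1 UMIs the log2 ratio was -0.10 in place of -0.73, with no UMI of other cell types -0.50, and without the Cd3d and Cd3g condition -0.25, so that difference was under 1.5-fold in 3 of 10 alternatives. The 9 macrophage and B cell genes summed to 39.1 and 4.33 CPM in this gate.

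Ccr8, the receptor of tumour regulatory T cells, was sparse and highest in Foxp3-positive cells in both libraries. It was seen in 41 of 487 untreated (8.42%, 6.11 to 11.2%) and 38 of 420 treated Foxp3-positive cells (9.05%, 6.48 to 12.2%), at 13.3 and 14.1 CPM from 49 and 43 UMIs. Both intervals overlap there. In Foxp3-positive cells with Pdcd1 the shares were 15.3% and 11.9%, and in those without 2.95% and 6.97%. CD4 cells without Foxp3 UMIs held it in 2.41% and 1.45%, and CD8 cells in 0.671% and 0.576%. It was seen in 0 of 310 and 0 of 85 dendritic cells (up to 0.968% and 3.53% allowed) and in 0 of 150 and 0 of 93 macrophages.

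Cxcr5, the receptor of follicular lymphocytes, was seen in 110 of 4176 untreated (2.63%, 2.17 to 3.17%) and 12 of 4684 treated CD8 cells (0.256%, 0.132 to 0.447%), with 122 and 13 UMIs. It reached 50 UMIs through the untreated library alone, so it had to be lower in the treated one, and the 8.84-fold difference (4.98 to 17.1) is a description. Of the 110 positive untreated cells, 104 had no Pdcd1 UMI, and without Pdcd1 the shares were 3.37% and 0.369%. The untreated CD8 share overlaps that of untreated macrophages (1.33%, 0.162 to 4.73%). In CD4 and Foxp3-positive cells 2 to 5 UMIs were counted per library, shares of 0.413% to 0.821% that the macrophage shares (1.33% and 0 of 93, which allows 3.23%) do not separate from background. Treated B cells, which carry the receptor, held it in 25.3% of 87 cells, and all 10 and 8 UMIs of the dendritic gate lay in the Fscn1 or Ccl22 cells (10.1% and 10.5% of them). Exons of Bcl9l overlap Cxcr5 on the opposite strand in GENCODE M21, and Bcl9l was at 35.0 and 45.7 CPM in CD8 cells.

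Ordered by level between gates, Cxcr6 was highest in CD8 cells in both libraries, ahead of CD4 cells beyond counting error, and near 0 in dendritic cells. Ccr2 kept 1 order in both libraries, from natural killer over Foxp3-positive, CD4 and dendritic to CD8 cells, with CD4 and dendritic cells overlapping in their intervals. For Cxcr3, Foxp3-positive cells led in both libraries, while dendritic, CD4 and CD8 cells overlapped as neighbours untreated and CD8 cells came last treated. For Cxcr4 the untreated gates overlapped as neighbours except CD8 cells, which were last, and in the treated library natural killer cells led, followed by Foxp3-positive and CD4 cells with overlapping intervals.

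At 2000 UMIs most cells of each gate showed at most 1 receptor. In CD8 cells 62.3% untreated and 52.2% treated had none of the 6, 32.7% and 40.2% had 1, and 4.57% and 6.60% had 2. Cells with 2 were 6.32% and 11.6% in CD4, 12.5% and 14.5% in Foxp3-positive and 2.95% and 5.95% in dendritic cells, and 4 of 14 and 5 of 33 natural killer cells. Cxcr3 and Ccr2 were found in the same CD8 cells 2.63 times (26 cells) and 3.19 times (30 cells) as often as the product of their shares. In CD4 cells the values were 3.87 (15 cells) and 1.40 (6 cells), in Foxp3-positive cells 1.54 (32 cells) and 1.20 (13 cells), and in dendritic cells 1.39 (3 cells) untreated with no such cell treated. Cxcr4 and Cxcr6 went the other way in CD8 cells, at 0.610 (51 cells) and 0.640 (144 cells) of the product, and stood at 1.20 (17 cells) and 0.771 (20 cells) in CD4 cells. Cxcr4 with Ccr2 was at 0.956 (10 cells) and 1.54 (61 cells) in CD8 cells, 1.54 (8 cells) and 0.842 (14 cells) in CD4 cells and 1.15 (29 cells) and 1.00 (28 cells) in Foxp3-positive cells. These ratios describe sparse counts of 1 library each, and the part of cell states in them was not tested.

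Of the other chemokine receptors, 14 of 17 genes on a list were measured. In CD8 cells 7 had enough UMIs, 0 were at least 1.5-fold higher (31% of all genes) and 4 lower (18.9%), with a list median of -1.88 against 0.126 for all genes. Xcr1 (6.44 and 0.589 CPM), a dendritic cell receptor, and Ccr9 (17.8 and 2.27 CPM), the gut homing receptor, had the lowest ratios, and Ccrl2 (42.0 and 49.6 CPM) and Cx3cr1 (18.3 and 18.4 CPM) the highest. In Foxp3-positive cells 7 had enough, and 1 was higher (Ccr6, 16.5 and 26.0 CPM; 17% of all genes were), while Ccr3 (23.6 and 7.24 CPM) and Ccr1 (27.9 and 11.5 CPM) had the lowest ratios.

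Of the ligands of the 6 receptors, 8 of 10 measured had enough UMIs in CD8 cells. There 1 was higher in the treated library (Ccl8; 31% of all genes were) and 6 lower (Cxcl9, Cxcl10, Cxcl16, Ccl1, Ccl7 and Ccl12; 18.9%). Most of these ligands are also made by myeloid cells, and in this gate the 8 dendritic cell genes summed to 264 and 37.6 CPM and the 9 macrophage and B cell genes to 32.3 and 15.8 CPM, whose part in the counts was not tested. Ccl1, the Ccr8 ligand, was at 34.2 and 2.00 CPM in CD8 cells but at 59.8 and 52.9 CPM in CD4 cells. Cxcl10 was at 54.3 and 155 CPM in CD4 and 98.7 and 219 CPM in Foxp3-positive cells, higher in the treated library, and at 240 and 68.3 CPM in macrophages, lower in it. In dendritic cells Cxcl9 was at 136 and 21.8 CPM and Cxcl16, the Cxcr6 ligand, at 283 and 304 CPM. In macrophages the Ccr2 ligands Ccl12 (561 and 86.5 CPM) and Ccl2 (495 and 338 CPM) were lower in the treated library. Ccl8, a ligand of Ccr8, was higher in it, at 196 and 1504 CPM. Cxcl12, the ligand of Cxcr4, had 17 and 20 UMIs in CD8 cells.

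Among genes that transmit or limit receptor signals, 24 of 25 measured had enough UMIs in CD8 cells, 9 were higher (31% of all genes) and 5 lower (18.9%), with a median of 0.395 against 0.126. Nothing is read from these counts for the list. Rgs2 (87.3 and 398 CPM), which shortens G protein signals, and Grk5 (1.25 and 3.42 CPM), a kinase that desensitises receptors, had the highest ratios. Rgs19 (59.7 and 21.9 CPM) and S1pr1 (67.4 and 28.5 CPM), the receptor for exit into lymph, had the lowest. In Foxp3-positive cells 21 had enough, with 3 higher (17% of all genes) and 4 lower (12.1%): Dock8 (54.8 and 110 CPM) and Rgs2 (419 and 733 CPM) were highest, Rgs19 (58.3 and 30.9 CPM) and Arrb2 (66.2 and 38.2 CPM) lowest.

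Genes most like each receptor were sought over the 10 sums of a gate in a library, by Pearson's r of log2(CPM + 1) among 11387 genes, as a description: sums of 1 library share its depth and free RNA. Cxcr4 was nearest to Eya3 (r = 0.947), Prpf39 and Hspa2, Cxcr3 to Tkfc (0.982), Zbtb37 and Slc10a3, and Cxcr6 to Zfp846 (0.956), Cd226 and Ezr. Ccr2 had Zfand6 (0.925), P4ha1 and Uba7, and Cxcr5 had Ears2 (0.949), Ccdc180 and Ccr7. For Ccr8, which missed the UMI minimum, the values were led by Fam241b (0.985). Between the receptors themselves r was 0.556 for Cxcr4 with Ccr2, 0.523 for Cxcr3 with Ccr8 and -0.542 for Ccr2 with Cxcr5.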

How the data were processed

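Both libraries were made with a 10x Chromium 3′ v3 kit, per the labels, and processed with Cell Ranger and Seurat, per the submitters' processing notes. Those notes name the build GRCh38, a human build, although the table holds mouse symbols; versions, annotation and strand use are not given in the sources used here. The deposited table holds 15121 genes in 17390 cells as the natural log of 1 plus UMIs per 10000. UMI counts were recovered from the deposited values by reversing the log and dividing by the smallest step of each cell, and 100.0% of 38204229 values above 0 came out whole within 0.01. The untreated library had 9312 cells and 95349992 UMIs (median 6155 per cell), the treated library 8078 cells and 58318786 UMIs (median 5987.5).

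Cells with over 10% mitochondrial UMIs or under 200 genes were removed (216 untreated, 358 treated), then those with a doublet score above the 95th percentile of their library (Scrublet in scanpy 1.11.5; 426 and 377, since scores tied at the percentile were kept). T cell and natural killer gates allowed at most 2 UMIs in total of 9 macrophage and B cell genes (among them Lyz2, C1qa, Csf1r, Adgre1, Cd79a and Ms4a1). The dendritic gate needed 10 class II UMIs and 1 UMI of Flt3, Xcr1, Clec9a, Cd209a, Fscn1 or Ccl22, with no T, B or Ncr1 UMI. Shares have Clopper-Pearson, levels exact Poisson and ratios exact conditional binomial intervals at 95%; differences of shares have Newcombe intervals. A count of 0 allows 3 counts. Thinned shares use 2000 UMIs per cell. A receptor or gene was counted as higher or lower at 1.5-fold, given 50 UMIs in 1 library and 1 in both. Since 3′ UMIs depend on each gene's end, no gene's level is compared with another's. The scripts were tested on simulated data; intervals came from scipy 1.17.1, sums from numpy 2.4.6 and pandas 2.3.3, and figures from matplotlib 3.10.9, under Python 3.11.15.

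The receptors, gates and gene lists were chosen with earlier results of these data known. Named beside the 6 receptors were overlapping genes, state genes, the 2 highest and 2 lowest ratios of the list of other receptors and of the signalling list in CD8 and Foxp3-positive cells, ligands of the receptors, and the 3 genes most like each receptor. Alternatives were no doublet removal, 5% mitochondrial UMIs, 2 gate UMIs, no or unlimited foreign UMIs, other totals and scalings, the mean over cells, deposited log values, UMI minimums of 10 and 200, thinning to 1000 or 4000 UMIs, and, chosen after seeing the data, a natural killer gate without the Cd3d and Cd3g condition and removal of shared barcodes. Cxcr1, Ackr1, Ackr2 and Cxcl11 were not analysed here. Some items are not reported here. Promoters came from the RefSeq table of GRCm38.p6, and gene overlaps from GENCODE M21.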

Additional observations from a re-analysis of the deposited data

Results flagged for a closer look

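Ccr2 differed in direction between cell types under the same contrast: its log2 ratio of CPM, treated over untreated, was 1.258 in CD8 cells, 0.945 in CD4 cells and 1.301 in dendritic cells, but -0.731 in natural killer cells. With 1 library per group the difference between cell types was not tested, and the natural killer value rests on 14 and 34 cells.

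Cxcr4 was also high in treated cells outside the 5 gates, at 710.5 CPM in B cells, 415.0 CPM in macrophages and 970.1 CPM in neutrophils, above the untreated library in each. Ccr2 in treated macrophages, also outside the gates, was 194.3 CPM against 113.8 CPM untreated.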

How the results depend on the processing

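Counts of receptors past 1.5-fold were within 1.5 times of the reported count in 95 recomputations and outside that range in 17. With at most 5% mitochondrial UMIs the count lower in dendritic cells was 0, and the difference in Cxcr4 shares of CD8 cells turned to -0.266 percentage points (2.478 as reported). With 2 gate UMIs the count higher in CD4 cells was 1, and both counts in natural killer cells were 0. With no UMI of macrophage or B cell genes the counts lower in Foxp3-positive and natural killer cells were 0. With no limit on these genes 1 receptor was higher in CD8 cells and 0 lower in Foxp3-positive cells. A minimum of 10 UMIs gave 1 lower in CD4 and 2 lower in natural killer cells. A minimum of 200 UMIs, by leaving fewer genes, gave 1 lower in CD8, 0 lower in Foxp3-positive, 0 higher and 0 lower in natural killer and 1 higher in dendritic cells. The natural killer gate without the Cd3d and Cd3g condition gave 0 lower, and the mean CPM of each cell gave 0 lower in Foxp3-positive cells. Apart from the minimums, the cause was not tested. Without the 35 shared barcodes every count was as reported.

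The log2 ratio of Cxcr4 was above 0 under each alternative in all 5 gates (natural killer cells on 15 and 94 UMIs as reported), from 0.649 to 0.832 in CD8 cells, and that of Cxcr3 in CD8 cells lay between -1.775 and -1.531. Cxcr6 in CD8 cells ranged from 0.071 to 0.580 and Ccr2 from 0.267 to 1.438. No paired analysis was possible because each group has 1 library. With 1 library per group no interval covers variation between mice or cultures, and low UMI numbers limit Ccr8, Cxcr5 and the natural killer gate.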
